A study of Mus musculus with 10 samples.

Results

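*Apoe*, *Apoc1*, *Apoc2* and *Apoc4*, which stand side by side on mouse chromosome 7, were followed across the cell types, microglial states and libraries of a single-cell RNA sequencing study of the brain's CD45+ cells (CD45 is a surface protein of blood-derived and resident immune cells). The genes were chosen by name, and all 4 members were found among the 31053 genes of the count matrix. Counted over 45472 cells, *Apoe* had 539946 unique molecular identifiers (UMIs, tags that each mark 1 captured RNA molecule), *Apoc1* 319, *Apoc4* 190 and *Apoc2* 2.

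Apolipoproteins wrap lipids into particles that can travel between cells. ApoE, the product of *Apoe*, is the main lipid carrier of the brain, made there largely by astrocytes and also by macrophages and by microglia that have left their resting state, and it is bound by several receptors of the cell surface, TREM2 among them. The small C apolipoproteins share these particles: ApoC-II is the cofactor that lipoprotein lipase needs, ApoC-I hinders several lipid-handling enzymes and receptors, and ApoC-IV is a minor and little-studied member. In microglia a rise of *Apoe* is part of the programme of disease-associated microglia (DAM), the cells that gather at amyloid plaques, and in macrophages the cluster is a known target of liver X receptors (LXR), which sense oxidised cholesterol.

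Each library came from the pooled whole brains of 3 mice, of which 2 were male and 1 female, and 1 library was made per genotype and age, giving 10 libraries of 3′-tagged RNA. Wild type (WT) mice and mice with a constitutive deletion of *Nlrp3* in the whole body (Nlrp3KO), the gene of an inflammasome sensor, were taken at 3, 6 and 9 months. *APP/PS1* mice, whose central neurons overexpress APP with the Swedish mutation and a mutant human presenilin 1, and Nlrp3KO *APP/PS1* mice were taken at 3 and 9 months. All mice were littermates on the C57BL/6 background, and the brains were dissociated in the cold with actinomycin D, an inhibitor of transcription, before the CD45+ sort. Since a group is 1 pool of brains, effects were tested over pairs of libraries, with 4 pairs for *APP/PS1* against non-diseased mice of the same age and Nlrp3 genotype and 5 pairs for Nlrp3KO against Nlrp3-intact mice of the same age and background. Each batch held the libraries of 1 age, and age and batch cannot be told apart, while both libraries of every genotype pair came from the same batch.

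The members lie on the minus strand within 27.6 kb (GRCm38). *Apoe* (ENSMUSG00000002985.16, chr7:19696109-19699188) comes first in the direction of transcription, *Apoc1* (ENSMUSG00000040564.14, chr7:19689481-19692660) begins 3448 bases further on, and *Apoc4* (ENSMUSG00000074336.5, chr7:19678083-19681479) and *Apoc2* (ENSMUSG00000002992.17, chr7:19671579-19677941) close the cluster. All 4 are protein coding. The annotation also holds *Gm44805* (chr7:19671584-19681423), a gene that spans *Apoc4* and *Apoc2* on the same strand. Overlap of the members' exons was computed with *Gm44805* alone. *Gm44805* shares 646 of the 813 exonic bases of *Apoc2* (79.5%), 119 of the 2537 of *Apoc4* (4.7%) and 0 of those of *Apoe* and *Apoc1*. Of the last 500 exonic bases, where 3′ tags fall, *Apoc2* shares 483 with it and *Apoc4* 0. Cell Ranger does not count a read that fits the exons of more than one gene, and *Gm44805* itself had 0 UMIs, so the count of *Apoc2* is uncertain.

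**Figure D1:**
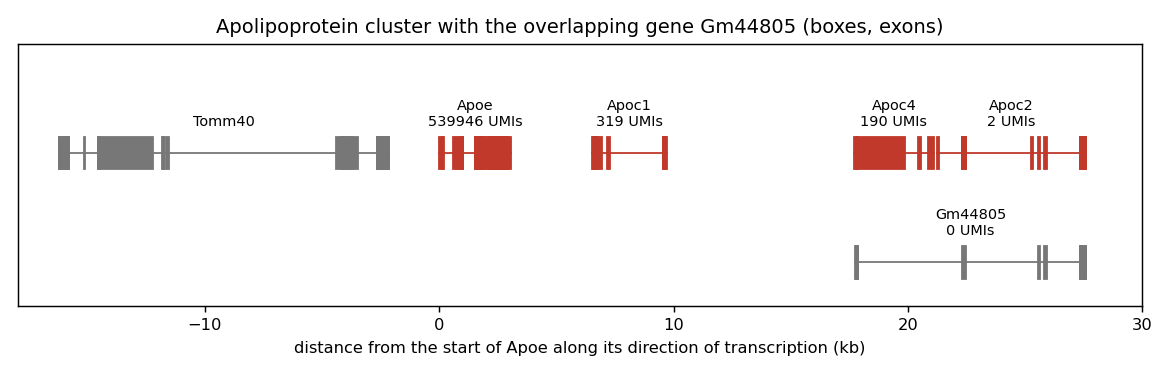
Exons of the cluster drawn to scale against the distance from the *Apoe* start (kb, in the direction of transcription), with the UMIs counted for each gene over all cells; *Tomm40* and *Gm44805* are in grey. The 4 members lie within 27.6 kb, and *Apoe* alone holds 539946 UMIs, against 319 for *Apoc1*, 190 for *Apoc4* and 2 for *Apoc2*.

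The start regions of *Apoe* and *Apoc4*, the members with the largest amyloid log2 fold changes in microglia, are shown from RefSeq (GRCm38.p6), with 250 bases before and 50 after the annotated start, read 5′ to 3′ on the minus strand. Capitals mark matches, on either strand, to the GC box GGGCGG, the TATA box TATAAA, the nuclear receptor motif AGGTCA and GAGGAA, the core of sites for the myeloid factor PU.1.
Apoe, chr7:19699139-19699438: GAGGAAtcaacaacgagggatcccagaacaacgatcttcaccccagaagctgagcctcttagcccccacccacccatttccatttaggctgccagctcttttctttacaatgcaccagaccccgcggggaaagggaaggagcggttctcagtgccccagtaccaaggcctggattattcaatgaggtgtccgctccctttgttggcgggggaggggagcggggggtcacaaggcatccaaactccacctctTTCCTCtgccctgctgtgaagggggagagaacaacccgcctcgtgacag
Apoc4, chr7:19681411-19681710: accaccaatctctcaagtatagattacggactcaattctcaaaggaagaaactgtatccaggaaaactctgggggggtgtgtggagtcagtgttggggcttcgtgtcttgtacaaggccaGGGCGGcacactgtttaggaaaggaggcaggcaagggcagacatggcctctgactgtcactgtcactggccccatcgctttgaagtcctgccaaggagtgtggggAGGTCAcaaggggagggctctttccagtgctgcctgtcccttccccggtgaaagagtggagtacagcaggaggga
The *Apoe* window held the PU.1 core at bases 1 and 252, counted from the first base printed, the second match lying on the other strand, and none of the other 3 motifs. The *Apoc4* window held GGGCGG at base 121 and AGGTCA at base 226, and neither TATAAA nor GAGGAA. Such short words are common: GAGGAA was found in 28.3% of 32851 windows of this length, AGGTCA in 16.3%, GGGCGG in 35.7% and TATAAA in 13.6%. *Apoe* has further annotated starts inside the gene, and at the start of one of them (chr7:19698572-19698871) TATAAA matched at bases 151 and 155. A match describes letters and was not tested as a site.

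The labels were checked first. *Nlrp3* had 390 to 1425 UMIs in the microglia of the 5 Nlrp3-intact libraries and 0 in all 5 Nlrp3KO libraries. Microglia numbered 40547, from 1755 to 8208 per library with 9357431 to 35107144 UMIs. A doublet score over 0.5 was given to 7.63% of microglia, and 246 of 45225 barcodes occurred in more than 1 library. Levels below are counts per 1000000 UMIs (CPM), a gene's UMIs scaled by all UMIs of the cells summed. A UMI tags the 3′ end of a molecule whatever its length, so CPM of different genes were set side by side without division by length.

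*Apoe* was foremost a transcript of border-associated macrophages (BAM), the macrophages of the meninges and perivascular spaces. In BAM marked by *Lyve1* it reached 68063 CPM, with 59755–77978 CPM in the 10 libraries (68006 ± 4703, mean ± SD, n = 10), and in the other BAM 35084 CPM with 26469–44073. It was the most abundant gene of both. The ranges of these types did not overlap with each other or with any other type of 10 or more cells per library.

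Among microglia, DAM and the cells in transition toward DAM (TM) held more *Apoe* than the other states when libraries were pooled. Pooled over libraries, *Apoe* stood at 7693 CPM in DAM and 4367 CPM in TM, where it ranked 8 and 20 among all genes. Microglia expressing immediate early genes (IEG), a known response to dissociation, held 1673 CPM, interferon-response microglia (IRM) 985, proliferating microglia (PM) 566 and homeostatic microglia (HM) 368. The 10 libraries ranged over 3041–5931 CPM in TM and 236–529 in HM, without overlap, and TM also lay above the highest IEG value of 2719 CPM, of which 1 cell supplied a large part (1209 without it). That gap to IEG was not kept with doublet scores of 0.5 or less (TM from 2857, IEG up to 3344) or in the annotation of all cells (TM from 1469, IEG up to 3188). DAM (803–12968) overlapped with TM and with IEG, and IRM (433–2019) with HM. The order of DAM and TM differed by library: TM was higher in Nlrp3KO at 3 months, in WT and Nlrp3KO at 6 months and in WT at 9 months. In Nlrp3KO at 9 months DAM was the higher only through 1 cell, described below. The median of the libraries was 4242 CPM in DAM and 4392 in TM. The pooled DAM level leans on the *APP/PS1* and Nlrp3KO *APP/PS1* libraries of 9 months, with 253 and 202 of the 901 DAM. The states are clusters of these same expression values, *Apoe* among them, so these differences are a description and carry no test. In the annotation of all CD45+ cells, which names 1416 DAM instead of 901, the pooled level was again highest in DAM, with 6213 CPM in DAM, 2779 in TM and 412 in HM.

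Non-classical monocytes (Mono NC), the patrolling blood monocytes, held 3997 CPM over 6 libraries (2251–6166), and classical monocytes (Mono) 1999 CPM over 5 (1091–5630). Both overlapped with TM. Lymphocytes, which are not known as sources of ApoE, still gave *Apoe* UMIs: 636 CPM in B cells, 366 in T cells and 198 in NK cells. Among types of 50 or more cells the lowest levels were 31.6 CPM in group 2 innate lymphoid cells (ILC2), 20.6 in type 2 conventional dendritic cells (cDC2) and 12.8 in NKT cells. The pooled level of HM was lower than that of B cells. When cells with a doublet score over 0.5 were left out, B cells stood at 367 CPM. HM then stood at 358 CPM in the annotation of microglia and 393 in that of all cells, so the order turned only in the latter.

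**Figure D2:**
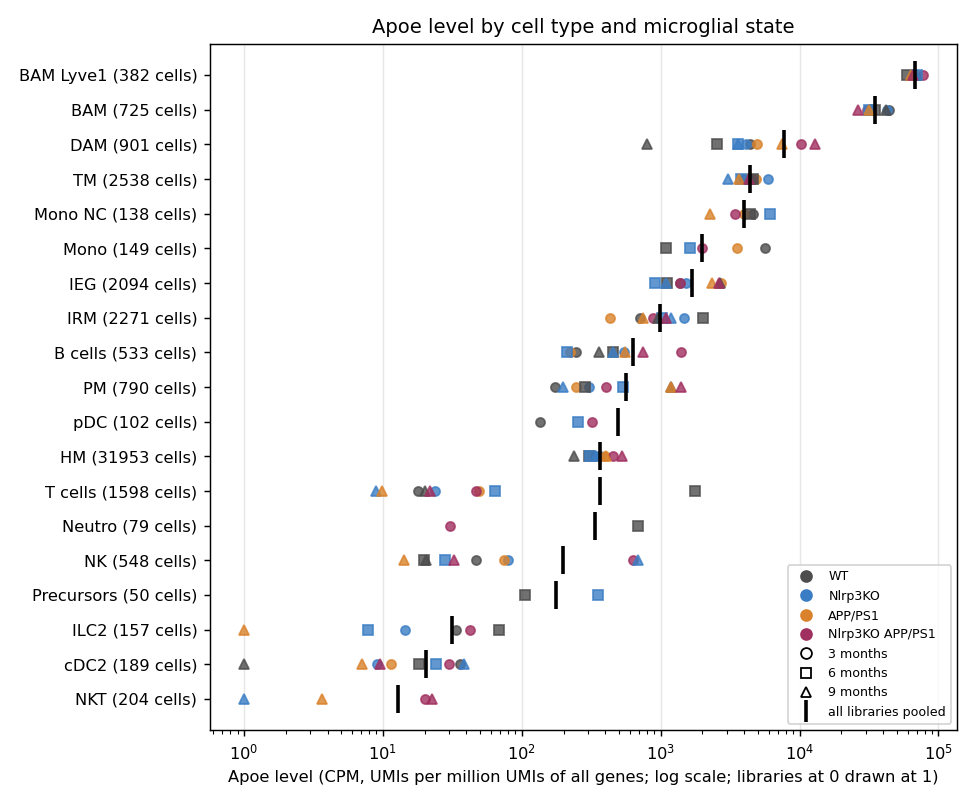
*Apoe* level (CPM, log axis) in the 19 cell types and states of 50 or more cells; bars are the level pooled over libraries and points are libraries with 10 or more cells, coloured by genotype and shaped by age, with libraries at 0 drawn at 1. BAM and BAM *Lyve1* stand above 26469 CPM in every library, TM between 3041 and 5931 and HM between 236 and 529.

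A few libraries set the lymphocyte levels. T cells held 8.92–64.6 CPM in 9 libraries and 1766 CPM in WT at 6 months. There, 8 of 259 T cells carried 3357 of 3587 *Apoe* UMIs (93.6%), all 8 had a doublet score over 0.5 and UMIs of both T cell and border macrophage markers, and the library stood at 121 CPM without them. In B cells 2 cells of Nlrp3KO *APP/PS1* at 3 months held 67.8% of that library's *Apoe* UMIs (1404 CPM, 463 without them), and the other libraries lay at 211–744 CPM. HM exceeded the T cells of the same library in all but WT at 6 months, whereas HM and B cells overlapped.

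Sharing of UMIs among cells was counted at equal depth. After thinning every cell to 1500 UMIs, 94.5% of border macrophages, 53.2% of DAM, 50.4% of TM, 20.3% of HM, 20.3% of B cells and 3.87% of T cells had an *Apoe* UMI. Without thinning the shares were 95.9%, 64.9%, 62.4%, 35.2%, 32.3% and 11.8%, with a median of 4506 UMIs in microglia and 5810 in T cells. At matched depth the share of HM with *Apoe* was thus above that of T cells and level with that of B cells, and free RNA in droplets was not tested as a source of it.

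*Apoe* was spread more evenly over border macrophages than over microglia. The median border macrophage spent 5.13% of its UMIs on *Apoe*, and the top 1% of these cells held 4.37% of their *Apoe* UMIs. Some held none: 45 of 1109 (4.06%) had 0 *Apoe* UMIs. Their median depth was 10898 UMIs, against 5493 in border macrophages with 30 or more *Apoe* UMIs. In microglia the median cell had no *Apoe* UMI (24712 of 40547 cells), the top 1% of cells (405) held 44.5% of all microglial *Apoe* UMIs, and the top 10% (4055) held 86.8%. Cells with more than 1% of their UMIs on *Apoe* numbered 665 (1.64%) and held 52.7%, and a further 694 cells lay between 0.5 and 1%. By state, 293 of the 665 were TM, 166 DAM, 89 HM, 66 IEG, 46 IRM and 5 PM.

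These *Apoe*-rich microglia made up 0.904% of microglia in WT and 1.18% in Nlrp3KO at 3 months, 1.30% in *APP/PS1* and 1.44% in Nlrp3KO *APP/PS1* at 3 months, and 1.57% in WT and 1.34% in Nlrp3KO at 6 months. At 9 months they were 1.53% in WT, 1.08% in Nlrp3KO, 4.01% in *APP/PS1* and 6.61% in Nlrp3KO *APP/PS1*. Only the *APP/PS1* libraries of 9 months stood apart from the other 8. Several technical measures moved with this class: 16.7% had a doublet score over 0.5 against 7.63% of all microglia, and 15% held a UMI of a border macrophage marker (*Mrc1*, *Pf4*, *Cd163*, *Ms4a7*, *Lyve1*, *Cbr2*) against 2.89% of the other microglia. The 6 markers summed to 57.0 CPM against 7.17 CPM. The median depth was 5739 UMIs against 4491.5. The part of these in the *Apoe* level was not tested.

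*APP/PS1* against non-diseased mice asks what amyloid does to the cluster. Summed over all microglia, *Apoe* stood at 556 CPM in WT, 784 in Nlrp3KO, 901 in *APP/PS1* and 917 in Nlrp3KO *APP/PS1* at 3 months. At 6 months it was 872 CPM in WT and 795 in Nlrp3KO. At 9 months it was 842 CPM in WT, 768 in Nlrp3KO, 2054 in *APP/PS1* and 3236 in Nlrp3KO *APP/PS1*, with counting intervals of at most 2.01% of each value. The *APP/PS1* libraries lay above all non-diseased libraries, narrowly at 3 months and widely at 9 months. At 3 months this rested on 1 IEG cell of *APP/PS1* with 1703 *Apoe* UMIs: without it that library stood at 812 CPM, below WT at 6 and 9 months, and still above both non-diseased libraries of 3 months.

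The pair log2 ratios were 0.70 and 0.23 at 3 months (Nlrp3-intact, then Nlrp3KO) and 1.29 and 2.08 at 9 months, higher in 4 of 4 pairs, with a mean of 1.07 ± 0.80 (SD, n = 4), or 2.10-fold (exact sign-flip permutation over pairs, two-sided p = 0.13, the lowest 4 pairs can give). The edgeR quasi-likelihood log2 fold change was 1.08 ± 0.28 (SE), and its edgeR adjusted p over 12282 genes was 0.404 (0.0051 unadjusted). *Apoc4* had 2.45 ± 0.48 (adjusted p = 0.257) and *Apoc1* −0.37 ± 0.31 (adjusted p = 0.776) in the same fit. Genes were called where the adjusted p was under 0.05 and the log2 fold change passed 1 in size. Of the 3 members tested 0 were called by edgeR and 0 by DESeq2, where 0.0407% of all genes tested were called. An unadjusted edgeR p under 0.05 was found for 2 of the 3 members and for 918 of all 12282 genes. *Apoc2* had no UMI in microglia and was not tested. The direction of *Apoc1* turned with the doublets: its mean pair log2 ratio was −0.14 with 1 of 4 pairs higher, and 1.14 with 3 of 4 higher among microglia with a doublet score of 0.5 or less (exact permutation p = 0.25), where it did not pass the filter on low counts.

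The difference between the *Apoe* effect at 9 and at 3 months was 1.30 ± 0.29 on the log2 scale, with an unadjusted p of 0.00337 and an adjusted p of 0.756 (edgeR, interaction term, 2 residual degrees of freedom), where 0 genes were called and 601 had an unadjusted p under 0.05. Between Nlrp3 genotypes the effect of amyloid on *Apoe* differed by 0.18 ± 0.59 (adjusted p = 1), where 0 genes were called and 446 passed the unadjusted limit. Without the Nlrp3KO *APP/PS1* library of 9 months, the amyloid effect on *Apoe* was 0.73 (adjusted p = 0.903). The sum of the border macrophage markers was highest in microglia of that library, at 14.3 CPM against 4.80 in the lowest. *Pf4* stood at 7.27 CPM there against a library median of 1.11. *Mrc1* (6.09 against 6.21), *Cd163* (0 against 0.0179) and *Cbr2* (0.321 against 0.355) were below their medians. *Ms4a7* (0.534 against 0.477) and *Lyve1* (0.107 against 0) were above theirs. Without microglia holding a UMI of such a marker the effect was 1.01 (adjusted p = 0.530). Markers of monocytes, which also carry *Apoe*, were higher with amyloid in the same fit for 4 of 4 tested, by a median of 1.09 and with 0 called; their sum was 20.6 and 15.2 CPM in the *APP/PS1* and Nlrp3KO *APP/PS1* libraries of 9 months against 6.86–13.2 in the others. Of 5 neutrophil markers the 2 tested were higher by a median of 1.32, with 0 called. The part of these cells in the *Apoe* difference was not tested.

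**Figure D3:**
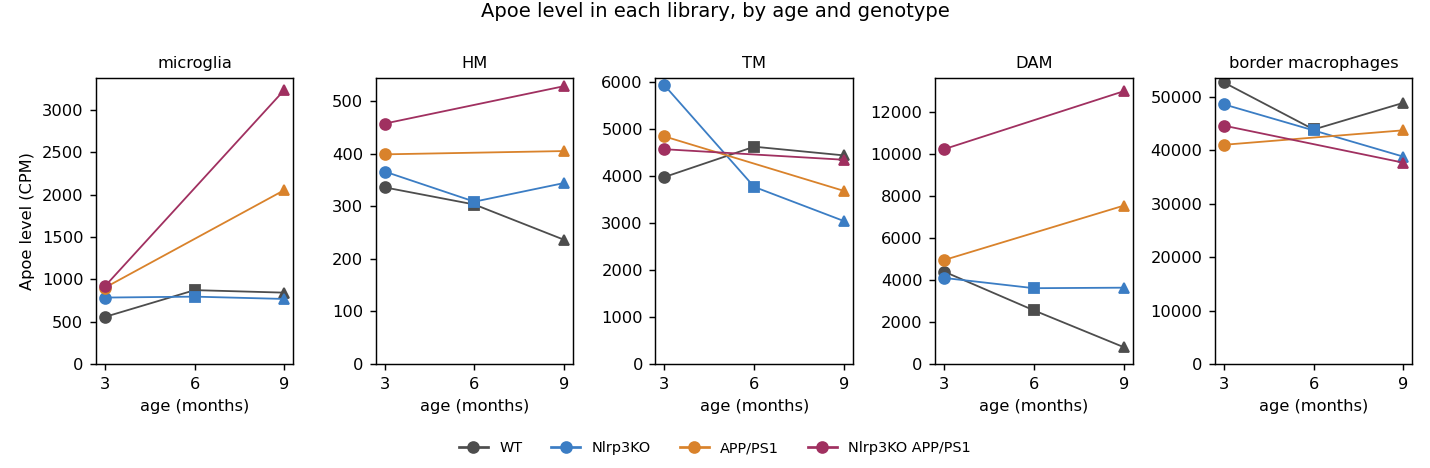
*Apoe* level (CPM) by age in months in all microglia, HM, TM, DAM and border macrophages, 1 point per library and 1 line per genotype. In microglia the *APP/PS1* and Nlrp3KO *APP/PS1* lines reach 2054 and 3236 CPM at 9 months, while those of WT and Nlrp3KO stay between 556 and 872 CPM; TM lines stay between 3041 and 5931 CPM.

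The shares of the states and the levels within them both differed. DAM were 0.431% and 0.622% of microglia in WT and Nlrp3KO at 3 months and 2.34% and 3.79% at 9 months. In *APP/PS1* and Nlrp3KO *APP/PS1* they were 0.778% and 1.01% at 3 months and 11.7% and 11.5% at 9 months. These DAM held 55.2% of the microglial *Apoe* UMIs in *APP/PS1* and 63.2% in Nlrp3KO *APP/PS1* at 9 months, but 2.46% in WT and 19.2% in Nlrp3KO of that age. HM, with 58.9% and 53.7% of the cells of the *APP/PS1* and Nlrp3KO *APP/PS1* libraries of 9 months, held 10.5% and 7.80% of their *Apoe*, against 20.4% in WT and 34.2% in Nlrp3KO of the same age and 26.9–51.8% in the libraries of 3 and 6 months.

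When each library was given the same shares of states, taken from all libraries, the mean amyloid log2 ratio was 0.50 (1.42-fold, pair values of 0.31, 0.23, 0.49 and 0.99). When each state was given the same level in every library and the shares were left as measured, it was 0.56 (1.47-fold, pair values of 0.40, 0.16, 0.80 and 0.87). Both were higher in 4 of 4 pairs (exact permutation p = 0.13 for each), beside the measured mean of 1.07. The assignment of cells to states used *Apoe* as one of many genes, so the split is not independent of its level.

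**Figure D4:**
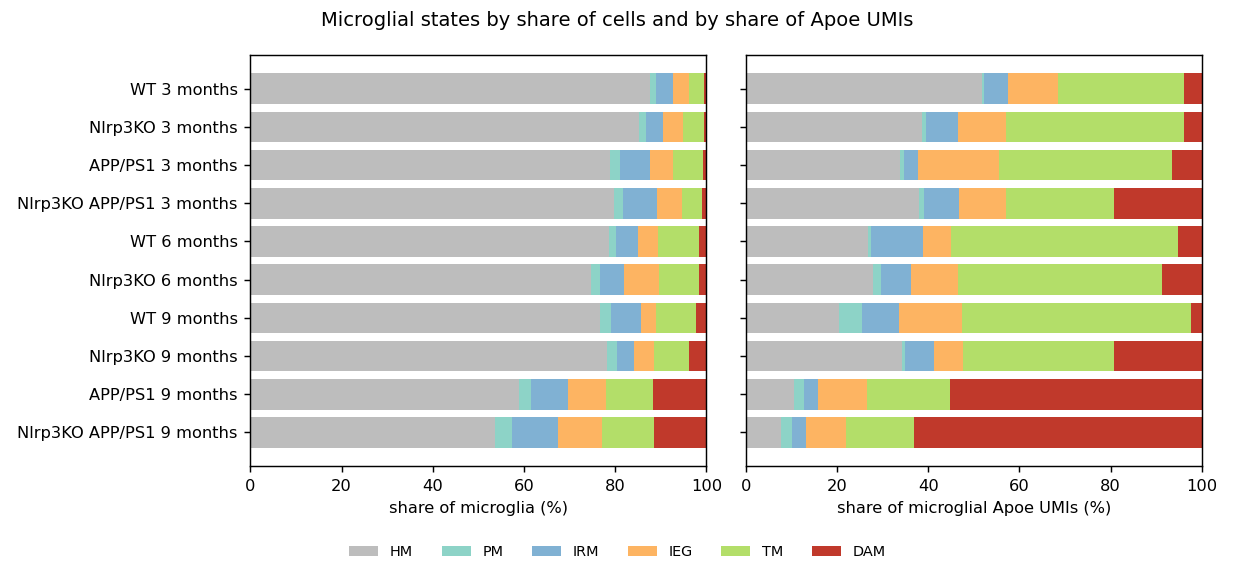
Share of microglial cells (left, percent) and of microglial *Apoe* UMIs (right, percent) in each of the 6 states, 1 stacked bar per library. DAM rise from at most 3.79% of cells in the non-diseased libraries to 11.7% and 11.5% in the *APP/PS1* and Nlrp3KO *APP/PS1* libraries of 9 months, where they hold 55.2% and 63.2% of the *Apoe* UMIs.

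Within homeostatic microglia *Apoe* was 336 CPM in WT, 366 in Nlrp3KO, 399 in *APP/PS1* and 458 in Nlrp3KO *APP/PS1* at 3 months, 304 in WT and 309 in Nlrp3KO at 6 months, and 236, 345, 405 and 529 at 9 months in the same order of genotypes. The *APP/PS1* library was above its partner in 4 of 4 pairs, and all 4 lay above the highest non-diseased value of 366. The edgeR log2 fold change was 0.48 ± 0.09, with an adjusted p of 0.480. In this fit 0 of 11887 genes were called by edgeR (0%, 544 at an unadjusted p under 0.05) and 0 by DESeq2, which gave *Apoe* an adjusted p of 0.00794 below the fold limit. *Apoe* was the only member that passed the filter on low counts in HM.

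In TM the level was as high without amyloid as with it: 3977 CPM in WT, 5931 in Nlrp3KO, 4842 in *APP/PS1* and 4570 in Nlrp3KO *APP/PS1* at 3 months, and 4438, 3041, 3683 and 4345 at 9 months. The log2 fold change was 0.03 ± 0.09 (edgeR adjusted p = 0.996), in a fit that called 0.0113% of genes. In IRM *Apoe* was 709 CPM in WT, 1473 in Nlrp3KO, 433 in *APP/PS1* and 877 in Nlrp3KO *APP/PS1* at 3 months, and 960, 1189, 752 and 1090 at 9 months, the *APP/PS1* library being the lower of each pair. The log2 fold change was −0.50 ± 0.09 (edgeR adjusted p = 0.0445, lower in 4 of 4 pairs). This was short of the fold limit, the fit called 0.0229% of genes (0.0459% by the adjusted p alone), and DESeq2 gave an adjusted p of 0.359.

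DAM showed the widest spread. *Apoe* was 4392 CPM in the 31 DAM of WT, 4092 in 37 of Nlrp3KO, 4943 in 24 of *APP/PS1* and 10214 in 83 of Nlrp3KO *APP/PS1* at 3 months. It was 2551 CPM (55 cells) in WT and 3605 (59) in Nlrp3KO at 6 months. At 9 months it was 803 CPM (55 cells) in WT, 3629 (102) in Nlrp3KO, 7530 (253) in *APP/PS1* and 12968 (202) in Nlrp3KO *APP/PS1*. All 4 *APP/PS1* libraries lay above all 6 non-diseased ones, and the Nlrp3KO *APP/PS1* libraries were the highest of both ages. Of the 9-month Nlrp3KO value, 1 cell with 1136 *Apoe* UMIs supplied 59.6%, and the library stood at 1487 CPM without it.

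Within DAM *Apoe* rose with amyloid by a log2 fold change of 1.79 ± 0.26 (edgeR adjusted p = 4.95e-05) and was called, in a fit that called 182 of 6331 genes (2.87%, and 7.61% by the adjusted p alone). The pair log2 ratios were 0.17, 1.32, 3.23 and 1.84, higher in 4 of 4 pairs (exact permutation p = 0.13). With DAM as the annotation of all cells names them it was 0.76 (adjusted p = 0.0668) and no longer called, with 3 of 4 pairs higher and a lowest pair value of −0.67. Among DAM with a doublet score of 0.5 or less it was 1.62 (adjusted p = 0.00214), also with 3 of 4 pairs higher and a lowest value of −0.35. Among DAM without a border macrophage marker UMI it was 2.17. The border markers in DAM summed to 49.7, 19.6, 8.79 and 41.2 CPM in WT, Nlrp3KO, *APP/PS1* and Nlrp3KO *APP/PS1* at 3 months. The sums were 6.59 and 14.2 in WT and Nlrp3KO at 6 months, and 0, 7.61, 10.2 and 29.1 at 9 months. *Lyve1* was at 0 in all 10 libraries. Single genes made up most of several sums: *Mrc1* was 37.3 CPM in WT at 3 months, and *Pf4* 34.6 in Nlrp3KO *APP/PS1* at 3 months. At 9 months *Pf4* was 9.64 in *APP/PS1* and 27.1 in Nlrp3KO *APP/PS1*.

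In BAM without *Lyve1*, but not in BAM *Lyve1*, the direction was the opposite. BAM without *Lyve1* held 44073 CPM of *Apoe* in WT, 42517 in Nlrp3KO, 32195 in *APP/PS1* and 30745 in Nlrp3KO *APP/PS1* at 3 months. They held 41622, 31554, 31622 and 26469 CPM at 9 months. edgeR gave a log2 fold change of −0.44 ± 0.04 (edgeR adjusted p = 1.63e-05, lower in 4 of 4 pairs), short of the fold limit, in a fit that called 0.27% of genes (0.725% by the adjusted p alone). In BAM *Lyve1* the log2 fold change was 0.02 ± 0.07 (adjusted p = 0.997), where 0 of 3318 genes were called by edgeR (132 at an unadjusted p under 0.05).

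Nlrp3KO against Nlrp3-intact mice asks what loss of the inflammasome sensor does to the cluster. In all microglia the pair log2 ratios of *Apoe* were 0.50 and 0.03 at 3 months (non-diseased, then *APP/PS1*), −0.13 at 6 months, and −0.13 and 0.66 at 9 months. The mean was 0.18 ± 0.37 (SD, n = 5), with 3 of 5 pairs higher (exact permutation p = 0.4375, where 5 pairs cannot go below 0.063). edgeR gave 0.19 ± 0.12 for *Apoe*, 0.96 ± 0.42 for *Apoc1* and 1.01 ± 0.41 for *Apoc4*, each with an adjusted p of 0.903. Without the Nlrp3KO *APP/PS1* library of 9 months the *Apoc4* value was 0.19 (adjusted p = 0.982), and without microglia holding a border macrophage marker UMI 0.48 (adjusted p = 0.921). Of the 3 members tested 0 were called by edgeR and 0 by DESeq2, and 0.0242% of all genes were called. *Apoc4* alone had an unadjusted edgeR p under 0.05, as had 574 of all 12383 genes. Without the *APP/PS1* pair of 9 months *Apoc4* did not pass the filter on low counts and was not tested.

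Within states the *Apoe* level was higher without *Nlrp3* in HM in 5 of 5 pairs, with a log2 fold change of 0.26 ± 0.07 (edgeR adjusted p = 0.919; exact permutation p = 0.063; 0.0334% of genes called). In DAM it was higher by 0.87 ± 0.17 (edgeR adjusted p = 0.0140), short of the fold limit, in a fit that called 0.121% of genes (0.155% by the adjusted p alone). The pair values were −0.10, 1.05, 0.50, 2.18 and 0.78, higher in 4 of 5 (exact permutation p = 0.13), and the largest rested on the single Nlrp3KO cell described above, without which that pair was 1487 against 803 CPM. The DAM value was 0.88 (adjusted p = 0.0162) with doublet scores of 0.5 or less and smaller with other choices of cells: it was 0.40 (adjusted p = 0.467) among DAM without a border macrophage marker UMI, 0.33 (adjusted p = 0.969) with the DAM of the annotation of all cells, and DESeq2 gave an adjusted p of 1. In BAM *Apoe* was lower in 5 of 5 pairs, by −0.21 ± 0.05 (edgeR adjusted p = 0.362; 0.0746% of genes called).

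The other fits within states and types gave no call of a member in edgeR, apart from Nlrp3 deletion in NK cells, described below. With amyloid the *Apoe* log2 fold change was 0.88 ± 0.30 in PM (adjusted p = 0.972, 0.142% of genes called), 0.49 ± 0.17 in IEG (0.994, 0.0224%), 0.79 ± 0.25 in B cells (1, 0.0592%), 0.65 ± 0.42 in T cells (0.810, 0.162%) and 0.59 ± 0.63 in NK cells (0.999, 0%). With Nlrp3 deletion it was 0.06 ± 0.32 in PM (adjusted p = 1, 0.128% of genes called), −0.46 ± 0.15 in IEG (0.906, 0.0665%), 0.38 ± 0.18 in IRM (0.984, 0.0691%), 0.68 ± 0.40 in B cells (0.999, 0.0849%), −1.60 ± 0.91 in T cells (1, 0%) and 0.07 ± 0.09 in BAM *Lyve1* (0.999, 0.0761%). The amyloid values in PM, IEG and B cells and the Nlrp3 values in IEG and IRM had an unadjusted edgeR p under 0.05. For amyloid that limit was passed by 369 of 7751 genes in PM, 377 of 8914 in IEG and 71 of 3377 in B cells. For Nlrp3 deletion it was passed by 446 of 9027 genes in IEG and 419 of 8680 in IRM. The lymphocyte values moved when cells with a doublet score over 0.5 were left out: the mean pair log2 ratio went from 0.64 (3 of 4 pairs higher) to −0.03 (2 of 4) for amyloid in B cells, and from −0.89 to 0.04 for Nlrp3 deletion in T cells, with 2 of 5 pairs higher in both. In NK cells the mean pair log2 ratio for amyloid was −0.31, with 2 of 4 pairs higher, opposite in sign to the fitted value.

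Of B, T and NK cells, *Apoe* was called in NK cells alone. It rose without *Nlrp3* by 2.41 ± 0.34 (edgeR adjusted p = 3.61e-04), 1 of 9 genes called among 5290 (0.17%). In the highest library, Nlrp3KO at 9 months, 18 NK cells held 74 *Apoe* UMIs (687 CPM). In Nlrp3KO *APP/PS1* at 3 months 1 cell, with a doublet score over 0.5 and a border macrophage marker, held 86.8% of the UMIs (629 CPM, 83.8 without it), and the other libraries lay at 14.2–79.5 CPM. Among NK cells of a doublet score of 0.5 or less the log2 fold change was 1.02 (adjusted p = 0.858), without the *APP/PS1* pair of 3 months 1.90 (adjusted p = 0.296), and with DESeq2 2.06 (adjusted p = 0.101).

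Between 3 and 9 months, microglial *Apoe* went from 556 to 842 CPM in WT and from 784 to 768 in Nlrp3KO, beside the wider steps in *APP/PS1* mice given above. Over the 4 genotypes the 9 against 3 months log2 fold change was 0.97 ± 0.27 (edgeR adjusted p = 0.0319), short of the fold limit. *Apoc4* rose by 3.20 ± 0.46 (adjusted p = 0.00278) and was called, the only one of 3 members tested, where 4.04% of 12383 genes were called. *Apoc1* had 0.48 ± 0.48 (adjusted p = 0.491). In HM alone the age difference of *Apoe* was −0.03 (adjusted p = 0.860). Without the Nlrp3KO *APP/PS1* library of 9 months it was 0.63 (adjusted p = 0.0877) in all microglia, and that of *Apoc4* 2.19 (adjusted p = 0.0246). Without both Nlrp3-intact or both Nlrp3KO *APP/PS1* libraries, *Apoc4* did not pass the filter on low counts and was not tested. By the adjusted p alone 27.4% of genes passed, each age being a batch of its own. Some listed markers of other cells were also called higher at 9 months in microglia. These were *Flt1* (endothelium, 2.38), *Ly6c2* and *Plac8* (monocytes, 2.57 and 1.01), *Xcr1* (dendritic cells, 1.5) and *Cd3d* (T cells, 1.86). Of the markers tested, 1 of 2 was higher for endothelium, 4 of 5 for monocytes, 3 of 3 for dendritic cells and 1 of 1 for T cells. For border macrophages 2 of 3 were higher and for neutrophils 0 of 2, with 0 called. *Flt1* itself was highest in Mono NC (61.0 CPM). The part of other cells in the *Apoc4* difference was not tested.

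*Apoc1* was a rare transcript of the same macrophages and of monocytes. Border macrophages together held 15.5 CPM (115 UMIs), Mono 22.0, Mono NC 12.7, TM 6.29 and DAM 4.48, against 0.12 in HM, 18 UMIs in all. No UMI was counted in lymphocytes: 0 of 1598 T cells had an *Apoc1* UMI, which allows a share of cells with a UMI, not of cells expressing the gene, of up to 0.188%, beside 3.70% of border macrophages, 1.46% of TM and 1.78% of DAM. In classical monocytes 20 of the UMIs came from the 14 cells of WT at 3 months. Per library, *Apoc1* in border macrophages ranged from 0 to 37.0 CPM.

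In microglia *Apoc1* had 27 UMIs in WT, 26 in Nlrp3KO, 11 in *APP/PS1* and 18 in Nlrp3KO *APP/PS1* at 3 months, 3 in WT and 17 in Nlrp3KO at 6 months, and 3, 22, 6 and 14 at 9 months in the same order of genotypes. As CPM these ran from 0.176 in WT at 6 months to 1.70 in Nlrp3KO at 9 months. Few cells carried them: in Nlrp3KO at 9 months 7 cells held the 22 UMIs, 9 of them in 1 IRM cell with a doublet score of 1, and the library stood at 1.01 CPM without it. In WT at 3 months 1 TM cell held 16 of the 27 UMIs (0.835 CPM, 0.340 without it). At 6 and 9 months every Nlrp3KO library was above its partner, with log2 ratios of 2.41, 2.69 and 1.46, and at 3 months the ratios were 0.16 and −0.16. Over 5 pairs the mean was 1.31 ± 1.29 (SD, exact permutation p = 0.1875), and 0.77 with 3 of 5 pairs higher among microglia with a doublet score of 0.5 or less (exact permutation p = 0.3125). Within TM, the state with the most microglial *Apoc1* UMIs (84), the Nlrp3 log2 fold change was 0.24 ± 0.44 (edgeR adjusted p = 0.997; 0.0438% of genes called) and the amyloid one −0.78 ± 0.40 (adjusted p = 0.988).

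*Apoc4* had its highest microglial level in 1 library. Microglia of WT, Nlrp3KO, *APP/PS1* and Nlrp3KO *APP/PS1* at 3 months held 3, 5, 5 and 13 UMIs, those of WT and Nlrp3KO at 6 months 7 and 5, and those of the 4 genotypes at 9 months 5, 6, 18 and 59. As CPM the 9-month values were 0.441, 0.465, 1.63 and 6.31, so the *APP/PS1* libraries of 9 months stood apart and the other 8 lay between 0.0928 and 0.465. The amyloid log2 ratios were 1.49 and 1.05 at 3 months and 1.89 and 3.76 at 9 months, higher in 4 of 4 pairs (mean 2.05, exact permutation p = 0.13).

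DAM held 71 of the 126 microglial *Apoc4* UMIs (12.2 CPM), nearly all in the *APP/PS1* libraries of 9 months. Nlrp3KO *APP/PS1* at 9 months had 55 UMIs in 15 cells (37.3 CPM), with 22 in 1 cell and 39 in the top 5, and *APP/PS1* at 9 months had 11 UMIs in 6 cells (6.63 CPM). Nlrp3KO *APP/PS1* at 3 months had 3 UMIs, Nlrp3KO at 9 months 2, and the DAM of the other 6 libraries had 0. Without microglia holding a border macrophage marker UMI, the amyloid effect on *Apoc4* in microglia was 1.76 (adjusted p = 0.399) and the age effect 2.64 (adjusted p = 0.00378). Without the Nlrp3KO *APP/PS1* library of 9 months the amyloid effect was 1.47 (adjusted p = 0.903).

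Outside DAM, *Apoc4* was found in border macrophages at 7.68 CPM (57 UMIs), of which WT at 6 months had 27, with 19 in 1 cell. HM held 0.27 CPM, as 40 single UMIs in 40 cells, with 0.108–0.680 CPM per library and a higher value in *APP/PS1* in 4 of 4 pairs (mean log2 ratio 0.79, exact permutation p = 0.13). T cells, which had no *Apoc1* UMI, held 0.48 CPM, with *Apoc4* UMIs in 5 of 1598 cells, 3 of them in WT at 6 months. With doublet scores of 0.5 or less T cells held 0.324 CPM (3 UMIs, 95% exact Poisson interval 0.0668–0.946) and HM 0.275. By these few counts the HM level was no higher than that of T cells. B cells and classical monocytes had 0.

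*Apoc2*, the lipoprotein lipase cofactor, had 2 UMIs in all 45472 cells and 0 in microglia. Given the exons it shares with *Gm44805*, described above, its level was not measurable here.

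Most UMIs of the C genes in microglia were in cells with many *Apoe* UMIs. The 1249 microglia (3.08%) with 30 or more *Apoe* UMIs held 118 of 147 *Apoc1* UMIs (80.3%) and 77 of 126 *Apoc4* UMIs (61.1%). *Apoc1* stood at 14.2 CPM in these cells against 0.0802 CPM in microglia without an *Apoe* UMI, and *Apoc4* at 9.27 against 0.258. For *Apoc4* this came from DAM, which held 70 of the 77 UMIs: below 30 *Apoe* UMIs its level did not climb with the bins (0.258, 0.293, 0.227 and 0.280 CPM), and in HM 21 of its 40 UMIs were in cells without *Apoe*. All 115 *Apoc1* and all 57 *Apoc4* UMIs of border macrophages were in the 1015 cells with 30 or more. These cells were 91.5% of the border macrophages and held 87.2% of their UMIs of all genes.

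Within the bin of most *Apoe* UMIs the genes differed by state; the bin has no upper end, and its DAM were deeper than its TM (median 8025 against 5541.5 UMIs), so the *Apoe* counts were not matched. Among TM with 30 or more *Apoe* UMIs (458 cells), *Apoc1* was 27.9 CPM (95% exact Poisson interval 22.0–35.0) and *Apoc4* 0.735 CPM (2 UMIs). Among DAM with 30 or more (253 cells), *Apoc1* was 10.4 CPM and *Apoc4* 31.6 CPM (24.6–39.9), with 70 of the 71 *Apoc4* UMIs of all DAM. Among HM with 30 or more (250 cells), *Apoc1* was 3.61 CPM and *Apoc4* 0.722 CPM. Most of the *Apoc4* in DAM came from 1 library, as given above, and these intervals cover counting error only. The order of TM and DAM for *Apoc1* is pooled over libraries that these states fill unequally: at 3 months TM held 24, 18, 10 and 11 UMIs in the 4 genotypes and DAM 1, 1, 0 and 2, while at 9 months TM held 1, 2, 0 and 7 and DAM 0, 9, 5 and 5.

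**Figure D5:**
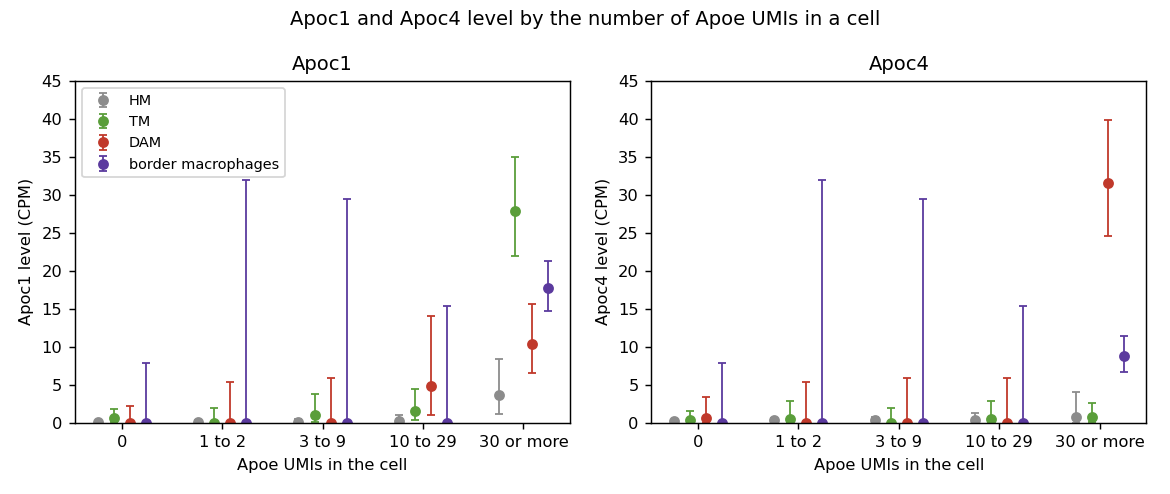
*Apoc1* (left) and *Apoc4* (right) level (CPM, with 95% exact Poisson intervals as bars) in HM, TM, DAM and border macrophages, with cells binned by their *Apoe* UMIs (0, 1 to 2, 3 to 9, 10 to 29, 30 or more). At 30 or more *Apoe* UMIs, *Apoc1* is 27.9 CPM in TM and 10.4 in DAM, whereas *Apoc4* is 0.735 in TM and 31.6 in DAM, all pooled over libraries that these states fill unequally.

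Genes that act with the cluster were taken from fixed lists and read against all genes tested. Of 9 ApoE receptors and binding proteins 6 were tested, of which 0 were called with amyloid (edgeR), with a median log2 fold change of 0.12 against 0.00 for all genes. *Trem2*, the microglial lipid receptor, had 0.11 at a pooled level of 3171 CPM. With age 0 of the 6 passed both limits.

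Of the genes of cholesterol efflux 4 of 6 were tested and of lipoprotein lipolysis 5 of 8, and 0 were called with amyloid, Nlrp3 deletion or age. *Lpl*, the lipase that ApoC-II activates, had an amyloid log2 fold change of 1.14 ± 0.29 (edgeR adjusted p = 0.404) and its highest level in the Nlrp3KO *APP/PS1* library of 9 months, the same library as *Apoe* and *Apoc4*. Of 9 LXR receptors and targets 8 were tested and 0 called, with an amyloid median of −0.03. With age *Nr1h2* (−0.37, edgeR adjusted p = 0.00175), *Rxra* (−0.24, adjusted p = 0.0222) and *Lpcat3* (−0.25, adjusted p = 0.00913) were lower and short of the fold limit. In that fit 27.4% of all genes tested passed the adjusted p alone.

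Other apolipoproteins were close to absent from microglia: of 18, 1 was tested in the amyloid fit and 2 in those for Nlrp3 deletion and age, and 0 were called. Outside microglia *Apod* reached 122 CPM in BAM *Lyve1* and *Apol9b* 29.9 CPM in NKT cells. *Apob* had 107 UMIs in all microglia and *Apod* 91, and *Clu*, the brain's other abundant lipoprotein component, had 74. *Apoa1*, *Apoa4*, *Apoa5*, *Apoc3* and *Apoh* were at 0. The 7 markers of astrocytes, the main source of ApoE in the brain, summed to 177–222 CPM in microglia, nearly all from *Slc1a3*, and the medians over libraries of *Gfap*, *Aqp4* and *Gja1* were 0. The part of astrocyte RNA in the microglial *Apoe* level was not tested.

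None of the genes tested around the cluster was called. Of 13 genes of the matrix within 100 kb, 8 were tested for amyloid and 0 were called, where 0.0407% of all genes tested were called. The log2 fold changes of the 8 ran from −0.08 to 0.28 with a median of −0.01. *Tomm40*, the mitochondrial import channel gene next to *Apoe*, had 0.09. With age 0 were called, against 4.04% of all genes. *Nectin2* (−0.37, edgeR adjusted p = 0.00786) was lower and short of the fold limit, where 27.4% of all genes passed the adjusted p alone.

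The genes whose microglial level followed *Apoe* most closely over the 10 libraries, by Pearson r of log2(CPM + 1) among 8234 genes, were *Gusb* (0.98), *Arhgap24* (0.97), *Psat1* (0.96), *Gm1673* (0.95) and *Fgl2* (0.95). For *Apoc1* they were *Pelp1* (0.85), *Ano10* (0.83), *Ywhab* (0.78), *Gm10076* (0.78) and *Ncf1* (0.78). Over the 19 cell types and states, *Lilra5*, *Cp*, *Adgre1*, *Smagp* and *Apobec1* were most like *Apoe* (r from 0.81 to 0.82 among 10895 genes), and *Msr1* (0.89), a scavenger receptor for modified lipoproteins, was most like *Apoc1*, followed by *Ms4a4a*, *4930455G09Rik*, *Pla2g7* and *Gpx3* (each 0.82). These correlations are descriptions over libraries that differ in age, batch and background, or over clusters of the same cells, and no p is given.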

How the data were processed

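The authors aligned reads with Cell Ranger to mm10, removed outlier cells with Scater and clustered cells with Seurat after harmony. They deposited UMI counts per gene and cell without normalization, an annotation of all CD45+ cells, an annotation of the microglia and, per cell, a doublet score whose caller is not given in the sources used here. Of 52369 cells and 31053 genes deposited, the 6897 cells under 2 sample names that fit no description were not used. Doublets were kept, and alternatives leave out scores over 0.5.

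Here the deposited counts were summed per library over microglia, each state and each cell type, and levels are CPM. Microglia of a library held 9357431 to 35107144 UMIs. The fits used filterByExpr, TMM and edgeR's quasi-likelihood test (edgeR 4.0.16, R 4.3.3) on all genes, with Benjamini-Hochberg adjustment, the pair as block (genotype as covariate for age) and at least 10 cells of a state or type in every library. Residual degrees of freedom in microglia were 3 for amyloid, 4 for Nlrp3 deletion and 4 for age. A call needed an adjusted p under 0.05 together with a log2 fold change past 1 in size. Libraries of a pair share a batch, and the groups were littermates, but no source ties single mice of paired pools to each other. Each group was 1 pool, so the spread between pools of the same group was not measured. The p-values set an effect against its variation over pairs, or over genotypes for age. These pairs and genotypes also differ in age, Nlrp3 genotype or background. Single values were tested by exact two-sided sign-flip permutation over pairs. Counts have 95% exact Poisson intervals, and a count of 0 was set against 3 counts, both covering counting error only. The same-share level averaged the states with the shares of all libraries together. Scripts ran in Python 3.11.15 with pandas 2.3.3, numpy 2.4.6 and scipy 1.17.1, and the fits were tested on simulated data.

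Alternatives were DESeq2 1.42.0, its size factors, no count filter, the adjusted p alone, doublet scores of 0.5 or less, HM only, microglia of the other annotation, no block, leaving out each pair, thinning to 1500 UMIs and equal weight per library. Leaving out the Nlrp3KO *APP/PS1* library of 9 months, cells with border macrophage markers or the cell with the most UMIs of a member, and all alternatives within states, were added after seeing the data. The members and lists were chosen with earlier results of these data known. Named genes are the members, list genes called in a comparison, the 5 most correlated with a member of at least 200 UMIs, and neighbours within 100 kb; list genes and neighbours that were not called were chosen after their values were seen. Promoters were matched by symbol in RefSeq (GRCm38.p6) for 3 of 4 members. Results of some list genes are not reported here.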

Additional observations from a re-analysis of the deposited data

Results flagged for a closer look

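Of 36 sets of pairs in which the highest and lowest value were compared with the rest, 1 held a pair far from the others, where chance gives about 1 in 20. In proliferating microglia the Nlrp3KO against WT log2 ratio of *Apoe* at 9 months without amyloid was −2.58, far below the other 4 pairs. WT stood at 1183 CPM and Nlrp3KO at 198 CPM. In WT 1 cell with 405 *Apoe* UMIs held 83.9% of them, and the library stood at 196 CPM without it.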

How the results depend on the processing

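Of the alternatives, 407 results stayed the same, 40 moved, 7 came to pass the limits, 4 no longer did and 1 reversed. A fold change stayed the same where it kept its direction and side of the limits. Counts of genes had to stay within a set ratio, levels within the SD over libraries and shares within their interval without thinning. These cover the fits, levels and shares, and of the mean pair ratios only that of microglial *Apoe* for amyloid with the same shares of states. The mean pair ratios of *Apoc1* in microglia and of *Apoe* in B and T cells turned without high doublet scores. The cause was not tested. In microglia the amyloid fit called 5 genes, and 22 with DESeq2, 0 in HM only, 0 without the Nlrp3KO *APP/PS1* library of 9 months and 0 to 11 when a pair was left out. The Nlrp3 fit called 3, and 6 with DESeq2, 5 with the adjusted p alone and 2 to 8 without a pair. The age fit called 500, and 3391 with the adjusted p alone, 248 in HM only, 322 without that library and 320 to 479 without a genotype. It called 1 member, and 2 with the adjusted p alone, 0 in HM only and 0 to 2 without a genotype. *Apoe* there (0.97) passed with the adjusted p alone, reversed to −0.033 in HM only and ran from 0.64 to 1.29 without a genotype.

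With the adjusted p alone, 1 member was called for amyloid in IRM (*Apoe*, −0.50) and in BAM (−0.44) and for Nlrp3 deletion in DAM (0.87). In DAM the amyloid fit called 182 genes, and 46 with DESeq2, 482 with the adjusted p alone and 77 with the annotation of all cells, where 0 members were called (*Apoe*, 0.76). The Nlrp3 fit in DAM called 7, and 2 with DESeq2 and 3 to 19 without a pair, with 0 to 1 member called and *Apoe* from 0.61 to 1.12. In NK cells 0 members were called with DESeq2 (2.06) and with doublet scores of 0.5 or less (1.02), and 0 to 1 without a pair (1.90 to 2.72). *Apoe* in plasmacytoid dendritic cells was 494 CPM, 219 without doublet scores over 0.5 and 236 as the mean of libraries. Thinned shares fell to 24.3% (microglia), 50.4% (TM) and 3.87% (T cells) for *Apoe*, and to 0.0685% (microglia) and 0.573% (TM) for *Apoc1*.

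Without the pairs as a block, *Apoe* was 1.09 (adjusted p = 0.240) for amyloid and 0.98 (adjusted p = 0.0194) for age, *Apoc4* 2.42 (adjusted p = 0.183) and 3.16 (adjusted p = 0.00203), and 6, 4 and 526 genes were called for amyloid, Nlrp3 deletion and age in edgeR, with no change in a call of a member. The few UMIs of *Apoc1* and *Apoc4*, and DAM of as few as 24 cells, limit what these libraries can show.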
